A study of Mus musculus with 37 samples.

Results

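The genes described here encode the machinery of motile cilia and of their core, the axoneme, in the hippocampus of mice that lost the histone demethylase Kdm1a in forebrain principal neurons. They were taken by name from the count table, with gene symbols from GENCODE release M21. Every symbol of the axonemal dynein heavy chains (Dnah), dynein assembly factors (Dnaaf), radial spoke proteins (Rsph) and cilia- and flagella-associated proteins (Cfap) was kept, and 12 further genes were added by name, among them Foxj1. This gave 71 of the 48795 genes in the table. The 71 include Dnah2os, an RNA antisense to Dnah2 that the name pattern caught. In total 62 of them had enough counts to be tested among 16799 tested genes, and the other 9 are accounted for below.

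The RNA-seq data came from poly-A RNA of 6 male mice on a C57BL/6J background, with 1 library per mouse. The 3 Kdm1a-ifKO mice carried Kdm1a f/f, with loxP sites around exons 5 and 6, and the Camk2a-creERT2 transgene, which recombines in principal neurons of the forebrain after tamoxifen. The 3 controls were littermates without the transgene. Both groups were treated with tamoxifen, at 8 weeks of age. The age at which RNA was taken from these 6 mice is not given in the sources used here. The Camk2a driver aims recombination at neurons, not at the ependymal and choroid plexus cells that carry motile cilia in the brain. Recombination in those cells was not measured here.

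Motile cilia are hair-like extensions that beat to move fluid. In the brain they line the ventricles on ependymal cells, and related cilia occur on the epithelium of the choroid plexus, next to the hippocampus. Their axoneme is a ring of doublet microtubules around a central pair: outer and inner dynein arms on the doublets produce the force, radial spokes and the central apparatus regulate it, and cytoplasmic factors preassemble the arms. The transcription factor Foxj1, with factors of the RFX family, switches on the genes of this machinery.

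The libraries held 18985542 to 19469947 counts each, and scaling factors were between 0.9814 and 1.014. Pairs of libraries of the same genotype differed by 2.95 to 7.59 times the variance that counting alone gives, so no library was a copy of another. Control 3 was the farthest from its group, with ratios of 6.56 and 7.59 against the other controls, which differed from each other by 2.95. Kdm1a fell from 80.1 ± 0.897 to 38.2 ± 1.23 CPM, the counts scaled to library size (SD, n = 3), a log2 fold change (log2FC) of -1.07 ± 0.056 (SE; adjusted p = 6.24e-08, edgeR quasi-likelihood test with Benjamini-Hochberg adjustment over all tested genes, as for every adjusted p below). Excitatory neuron markers were high in both groups, with mean CPM of Camk2a at 4640 ± 111 for controls against 4820 ± 296 for Kdm1a-ifKOs.

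The cilia genes were expressed at low levels. To compare genes, counts were divided by exon length and rescaled in each library as TPM, a level per length. In control mice Cfap36 was the highest at 134 ± 1.20 TPM. Cfap298, an assembly factor, followed at 60.1 ± 3.51 TPM, and Cfap20, which sits inside the doublet, at 43.5 ± 1.76 TPM. The ranges of these 3 genes over the control libraries did not overlap. Next came Rsph9, a protein of the radial spoke head, at 37.2 ± 2.99 TPM and Cfap300, an assembly factor, at 30.6 ± 1.27 TPM. Cfap300 could not be ordered against Cfap97 (29.3 ± 2.05 TPM), since their ranges of 29.6 to 32.1 and 27.7 to 31.6 TPM overlapped. Below these 6 genes the level dropped to 14.2 ± 1.80 TPM for Cfap100 and 14.0 ± 2.90 TPM for Foxj1, which again overlapped. Dynein heavy chains stood lowest, with a median of 0.602 TPM over the 5 outer arm chains and 0.677 TPM over the 9 inner arm chains. Within them Dnah9 of the outer arm, at 6.92 ± 0.595 TPM, and Dnah1 of the inner arm, at 4.44 ± 0.159 TPM, were the highest. The median was 2.19 TPM for the central apparatus, 3.25 TPM for the radial spokes, 2.63 TPM for proteins of the doublet lumen with the tektins, and 7.26 TPM for the assembly factors.

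RFX factors bind a motif called the X-box, and Foxj1 binds a forkhead motif. Both were searched in RefSeq promoter windows (GRCm38.p6), which run from 250 bases before to 50 bases after a start site and which matched 56 of the 71 genes. The X-box was searched as GTNNC, then NATN, then GNNAC without a gap, a pattern that reads the same on both strands. It was present in 8 of the 56 genes (14.3%) and in 326 of all 27025 genes of the windows (1.21%). These 8 were Cfap126, Cfap44, Cfap45, Cfap57, Cfap70, Dnaaf2, Rsph9 and Tekt1. The forkhead motif TGTTTAC, on either strand, was present in 3 of the 56 genes (5.36%), Cfap20, Cfap43 and Dnah17, and in 4.05% of all genes, and no cilia gene held both motifs. The 5 windows in which the X-box lies wholly before the start site are printed below. Each is on the strand of the gene, with the motif in capitals. The search pattern fixed every motif letter not written as N, so likeness at those letters was set by the search. The windows are chr1:171122933-171123006 for Cfap126 (+ strand), chr16:44394742-44394798 for Cfap44 (+), chr1:172521081-172521129 for Cfap45 (+), chr12:69198430-69198476 for Dnaaf2 (-) and chr11:72361883-72361927 for Tekt1 (-). The number of bases between the motif and the start site was 68 for Cfap126, 13 for Cfap44, 5 for Cfap45, 3 for Dnaaf2 and 1 for Tekt1.
Cfap126: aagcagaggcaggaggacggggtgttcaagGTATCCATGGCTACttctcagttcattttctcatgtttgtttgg
Cfap44: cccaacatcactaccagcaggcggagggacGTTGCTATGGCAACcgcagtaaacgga
Cfap45: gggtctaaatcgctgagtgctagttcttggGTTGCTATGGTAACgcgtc
Dnaaf2: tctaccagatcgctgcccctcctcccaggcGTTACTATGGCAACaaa
Tekt1: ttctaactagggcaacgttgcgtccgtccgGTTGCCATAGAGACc
A match describes the letters of a window, and binding was not measured at it here. None of the 8 genes with an X-box passed the test between genotypes given below, and their log2FC ran from -0.46 for Cfap126 to 0.04 for Dnaaf2.

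The comparison of Kdm1a-ifKOs with controls asked whether the loss of Kdm1a in neurons came with a change of the cilia genes. Of the 62 tested, 6 passed an adjusted p of 0.05 (9.68%, against 8.85% of all tested genes). In the upward direction 3 passed (4.84%, against 6.04%), Ccdc114, Cfap100 and Dnah1. Another 3 passed in the downward direction (4.84%, against 2.82%), Cfap65, Cfap69 and Cfap97. At an unadjusted p of 0.05 the share was 25.8% of the cilia genes and 24.5% of all genes. The share of cilia genes that passed was therefore near that of all genes. Most of the other estimates were small and below 0: the log2FC was negative in 48 of the 62 (77.4%, against 50.9% of all genes), with a median of -0.17, against -0.003 over all genes. All 3 Kdm1a-ifKO libraries lay below all controls in 13 genes (21%, against 14.4%) and above them in 3 (4.84%, against 15.7%). In bulk tissue, fewer cells of a type and less RNA per cell cannot be told apart.

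**Figure D1:**
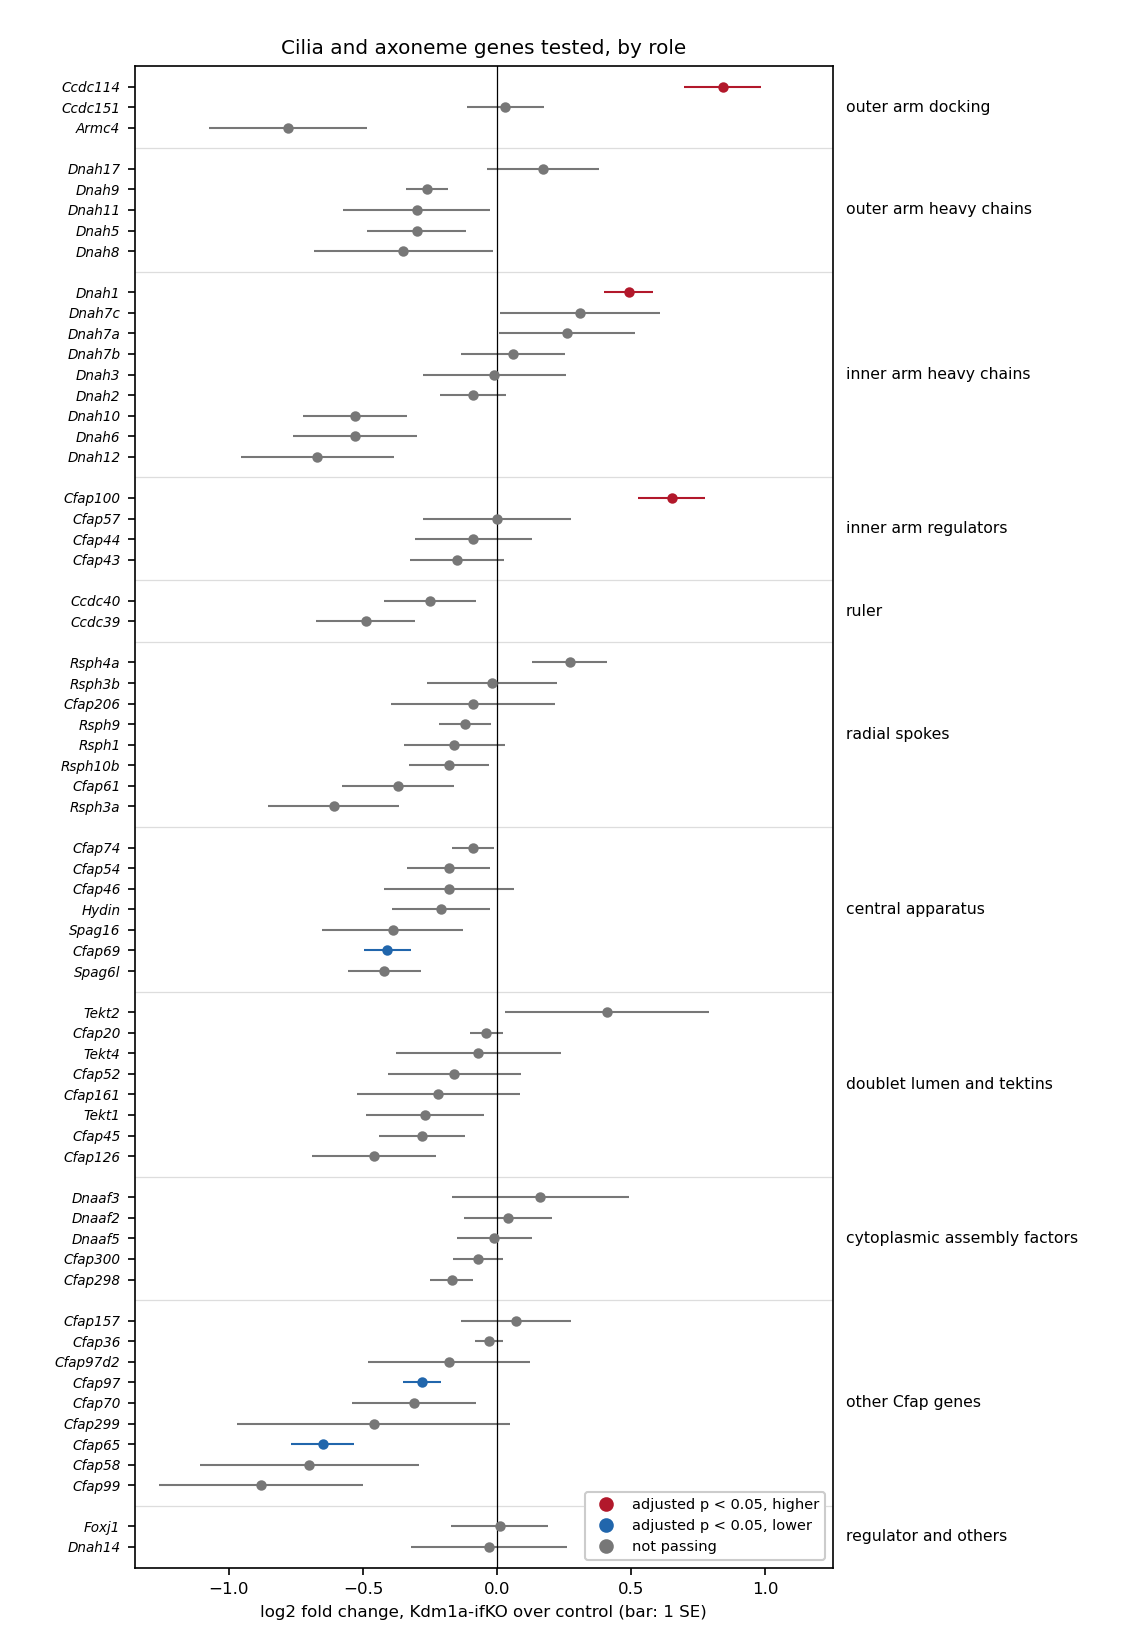
Log2 fold change between Kdm1a-ifKO and control hippocampus (horizontal axis, bars show 1 SE, 3 libraries per genotype) of the 62 tested cilia and axoneme genes, grouped by role. Red and blue points passed an adjusted p of 0.05, and the other 56 did not; the points run from -0.88 for Cfap99 to 0.84 for Ccdc114, with 48 of 62 below 0.

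Outer dynein arms are anchored to the doublet by a docking complex, and 1 of its 3 members here rose. Ccdc114 was at 5.49, 4.46 and 5.27 CPM in the controls and at 8.38, 8.22 and 10.7 CPM in the Kdm1a-ifKOs. All Kdm1a-ifKO libraries were above all controls, and the log2FC of 0.84 ± 0.145 (adjusted p = 0.00252) was the largest of the 62. The gene (ENSMUSG00000040189) lies at chr7:45924072-45948963 of GRCm38. Of its partners, Ccdc151 was at 6.17, 5.83 and 7.15 CPM in controls and 5.50, 6.95 and 7.09 CPM in Kdm1a-ifKOs, with overlapping groups and a log2FC of 0.03 ± 0.143 (adjusted p = 0.925). Armc4 was at 1.93, 1.05 and 1.5 CPM against 0.926, 0.965 and 0.719 CPM. Its groups did not overlap, but at 85 and 51 counts per group the log2FC of -0.78 ± 0.294 did not pass (adjusted p = 0.122). The difference between these partners was not tested.

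None of the 5 heavy chains of the outer arm passed. Their log2FC ran from -0.35 for Dnah8 to 0.17 for Dnah17. Dnah9, the most abundant, was at 26.7, 26.0 and 30.6 CPM in controls and at 23.4, 22.7 and 23.7 CPM in Kdm1a-ifKOs. The 2 groups did not overlap, with a log2FC of -0.26 ± 0.078 and an adjusted p of 0.0572.

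Among the 9 inner arm heavy chains only Dnah1 passed. Dnah1 was at 14.9, 14.8 and 14.0 CPM in controls and reached 22.2, 21.2 and 18.2 CPM in Kdm1a-ifKOs. The groups were well apart, and the log2FC was 0.49 ± 0.091 (adjusted p = 0.00418). The gene (ENSMUSG00000019027) spans chr14:31260375-31323896. Several other inner arm chains had estimates of the opposite sign: the log2FC was -0.67 ± 0.286 for Dnah12 (adjusted p = 0.166), -0.53 ± 0.194 for Dnah10 (adjusted p = 0.113) and -0.53 ± 0.230 for Dnah6 (adjusted p = 0.182). Of these, only Dnah10 had groups that did not overlap, at 5.12, 3.99 and 4.89 CPM against 2.37, 3.71 and 3.65 CPM. Dnah7a, Dnah7b and Dnah7c, near-identical copies whose reads may be lost or split, had log2FC of 0.26, 0.06 and 0.31, and none passed. Their levels are uncertain for that reason.

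Cfap100 belongs to a complex that modifies inner arms. It was at 14.7, 12.9 and 16.7 CPM in controls and at 26.2, 19.3 and 23.9 CPM in Kdm1a-ifKOs. Groups did not overlap, and the log2FC was 0.65 ± 0.124 (adjusted p = 0.00872). Its locus, chr6:90403479-90428797 (ENSMUSG00000048794), overlaps Zxdc on the opposite strand, and Zxdc had a log2FC of -0.04 (adjusted p = 0.799). Of the 3 other tested inner arm regulators, none passed, with log2FC of -0.15 for Cfap43, -0.09 for Cfap44 and -0.00 for Cfap57.

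The ruler proteins Ccdc39 and Ccdc40 set the repeat along the doublet at which arms and spokes attach. Ccdc39 was at 19, 18.8 and 26.1 CPM in controls and at 13.1, 18.9 and 13.3 CPM in Kdm1a-ifKOs, with a log2FC of -0.49 ± 0.184 (adjusted p = 0.153). Control 3 was high and Kdm1a-ifKO 2 was level with the other controls, so the groups overlapped. Ccdc39 did pass with DESeq2 (adjusted p = 0.0259), with no filter on low counts and without Kdm1a-ifKO 2 (adjusted p = 0.0147). Ttc14 lies on the opposite strand over part of Ccdc39, and it was likewise highest in control 3, at 4337 counts against 3077 and 3271 in the other controls. Without strand information, reads of Ttc14 and Ccdc39 cannot be told apart where they overlap. Ccdc40 had a log2FC of -0.25 ± 0.170 (adjusted p = 0.401).

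For the central apparatus, which coordinates the beat, all 7 tested genes had a negative log2FC, from -0.42 to -0.09, and 1 fell. That gene, Cfap69, was at 18.7, 18.3 and 20.7 CPM in controls and 13.5, 15.4 and 14.5 CPM in Kdm1a-ifKOs. The groups did not overlap, with a log2FC of -0.41 ± 0.088 (adjusted p = 0.0111; ENSMUSG00000040473, chr5:5579278-5664239). Spag6l was as far apart, at 7.01, 6.35 and 6.29 CPM against 5.24, 5.08 and 4.36 CPM, but its log2FC of -0.42 ± 0.137 did not pass (adjusted p = 0.0765). Hydin, a large protein of the central pair whose loss causes hydrocephalus in mice, had a log2FC of -0.21 ± 0.182 (adjusted p = 0.525), and Spag16 of -0.39 ± 0.263 (adjusted p = 0.390).

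Radial spoke genes and the proteins of the doublet lumen gave no call. In each of these groups 7 of 8 tested genes had a negative log2FC, with medians of -0.14 and -0.19. The largest estimate for the spokes was -0.61 ± 0.243 for Rsph3a (adjusted p = 0.140), whose near copy Rsph3b was at -0.02 ± 0.242, and how reads were divided between the copies is uncertain. For the tektins, filaments of the doublet wall, the log2FC was -0.27 ± 0.220 for Tekt1, 0.41 ± 0.381 for Tekt2 and -0.07 ± 0.307 for Tekt4 (adjusted p = 0.482, 0.552 and 0.919). The control mean of Cfap20 was 48.8 ± 1.85 CPM and that of Kdm1a-ifKOs 47.4 ± 2.05 CPM (adjusted p = 0.736).

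Cytoplasmic assembly factors had a median log2FC of -0.01 over 5 genes, from -0.17 for Cfap298 to 0.16 for Dnaaf3, and none passed. The remaining Cfap genes held the other decreases. Cfap65, a gene needed for the sperm flagellum, was at 15.9, 16.3 and 14.1 CPM in controls and at 8.12, 10.4 and 11.1 CPM in Kdm1a-ifKOs. Every Kdm1a-ifKO library was below every control, and the log2FC was -0.65 ± 0.118 (adjusted p = 0.00399; ENSMUSG00000047021, chr1:74902071-74935599). Cfap97 was at 37.1, 36.0 and 41.2 CPM against 32.1, 32.4 and 29.7 CPM, without overlap, and its log2FC of -0.28 ± 0.072 gave an adjusted p of 0.0291 (ENSMUSG00000031631, chr8:46151771-46195590). Snx25 overlaps Cfap97 on the opposite strand and had a log2FC of 0.06 (adjusted p = 0.532). The call of Cfap97 was lost in 3 of the 6 fits that left out 1 library, those without control 3, Kdm1a-ifKO 1 or Kdm1a-ifKO 3 (adjusted p of up to 0.119), and that of Cfap69 in 1, without Kdm1a-ifKO 1 (adjusted p = 0.0571). The calls of Ccdc114, Cfap100, Dnah1 and Cfap65 held in all 6. Cfap99, the lowest estimate of the 62 at -0.88 ± 0.380 (adjusted p = 0.174), and Cfap58, at -0.70 ± 0.408 (adjusted p = 0.317), had means under 1 CPM in both groups. Cfap36, the most abundant, had a log2FC of -0.03 ± 0.053 (adjusted p = 0.743).

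Foxj1 itself was at 11.3, 7.77 and 8.54 CPM in controls and at 7.46, 8.93 and 11.5 CPM in Kdm1a-ifKOs. The groups covered the same range, and the log2FC was 0.01 ± 0.181 (adjusted p = 0.985). Within the genotypes control 1 and Kdm1a-ifKO 3 were the high libraries.

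**Figure D2:**
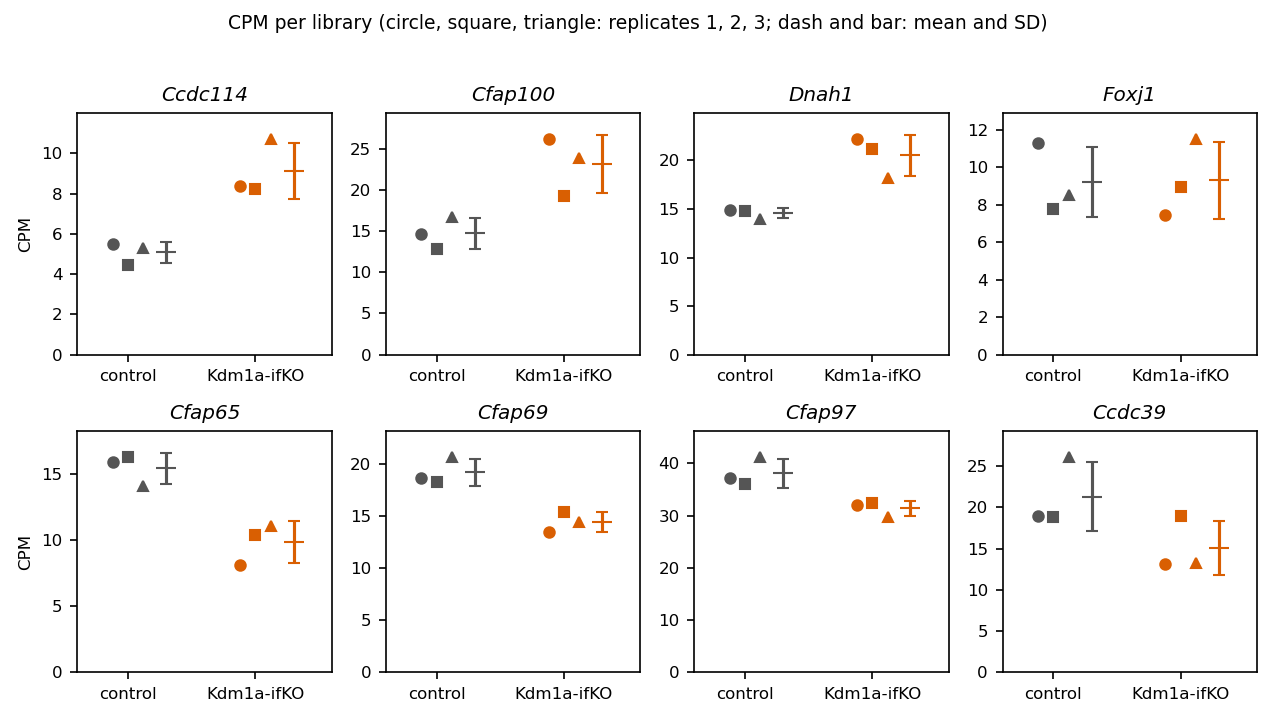
CPM in each library (circle, square and triangle for replicates 1, 2 and 3; dash and bar give mean and SD) of the 6 genes that passed, of Foxj1 and of Ccdc39, with each vertical axis starting at 0. The groups are apart in Ccdc114, Cfap100, Dnah1, Cfap65, Cfap69 and Cfap97, whereas in Foxj1 the values run from 7.46 to 11.5 CPM and in Ccdc39 they overlap.

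The 9 genes left out of the test had few counts in every library. Summed over 6 libraries, Rsph14 had 45 counts, Cfap77 49, Cfap53 53, Dnaaf1 54, Cfap221 42, Cfap73 41, Rsph6a 28, Cfap97d1 11 and Dnah2os 4. Dnaaf1, an assembly factor, had 22 counts in control 1 and 4 to 8 in the other libraries. Cfap53 and Cfap77 were also highest in control 1, at 18 counts each, against 4 to 8 elsewhere.

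The cilia genes also varied between libraries of the same genotype, and to a degree they did so together. To show this, each gene's log2 CPM was set relative to the mean of its genotype, and the deviations were correlated with the mean deviation of the other tested cilia genes over the 6 libraries. These correlations are descriptions: each point is a library whose size and scaling all genes share, and centring leaves fewer independent points than 6. The median correlation was 0.38 for cilia genes and 0.01 for all tested genes. It was above 0 in 47 of 62 cilia genes (75.8%, against 50.3% of all genes) and above 0.5 in 22 (35.5%, against 18.7%). Dnah10 (0.93), Cfap161 (0.92), Ccdc151 (0.89), Dnah3 (0.86) and Dnah6 (0.86) were the highest, and Foxj1 stood at 0.74.

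Control 2 had the lowest value of the controls in 34 of the 62 genes (54.8%, against 29.7% of all tested genes). Kdm1a-ifKO 1 was the lowest of its group in 29 (46.8%, against 30.9%). On average the cilia genes deviated by -0.11 in control 2 and by -0.10 in Kdm1a-ifKO 1 on the log2 scale, and by 0.04 to 0.06 in the other 4 libraries. These within-genotype shifts were of the same order as the median log2FC between genotypes of -0.17, which moved to -0.09 without Kdm1a-ifKO 1, to -0.10 without control 3 and to -0.22 without control 2.

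Not every gene took part. At the other end were Cfap20 (-0.88), Cfap36 (-0.81), Cfap298 (-0.80), Tekt2 (-0.72) and Rsph3a (-0.68). A correlation under -0.5 was found for 9 of the 62 cilia genes and for 18.8% of all tested genes, so such values were not particular to these genes. Cfap36, Cfap298 and Cfap20 were the 3 most abundant genes of the set, and they varied little: Cfap36 was at 91.5, 93.3 and 92.3 CPM in controls and at 95.1, 87.6 and 87.9 CPM in Kdm1a-ifKOs. Tekt2, by contrast, was below 1 CPM in every library. Of the genes that changed between genotypes, Cfap69 (0.75) and Ccdc114 (0.70) varied with the other cilia genes, Cfap65 (0.39) and Cfap97 (0.21) less so, Cfap100 (0.04) did not, and Dnah1 (-0.62) varied in the opposite way. The genes with an X-box ranged from -0.54 for Rsph9 to 0.83 for Cfap70.

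**Figure D3:**
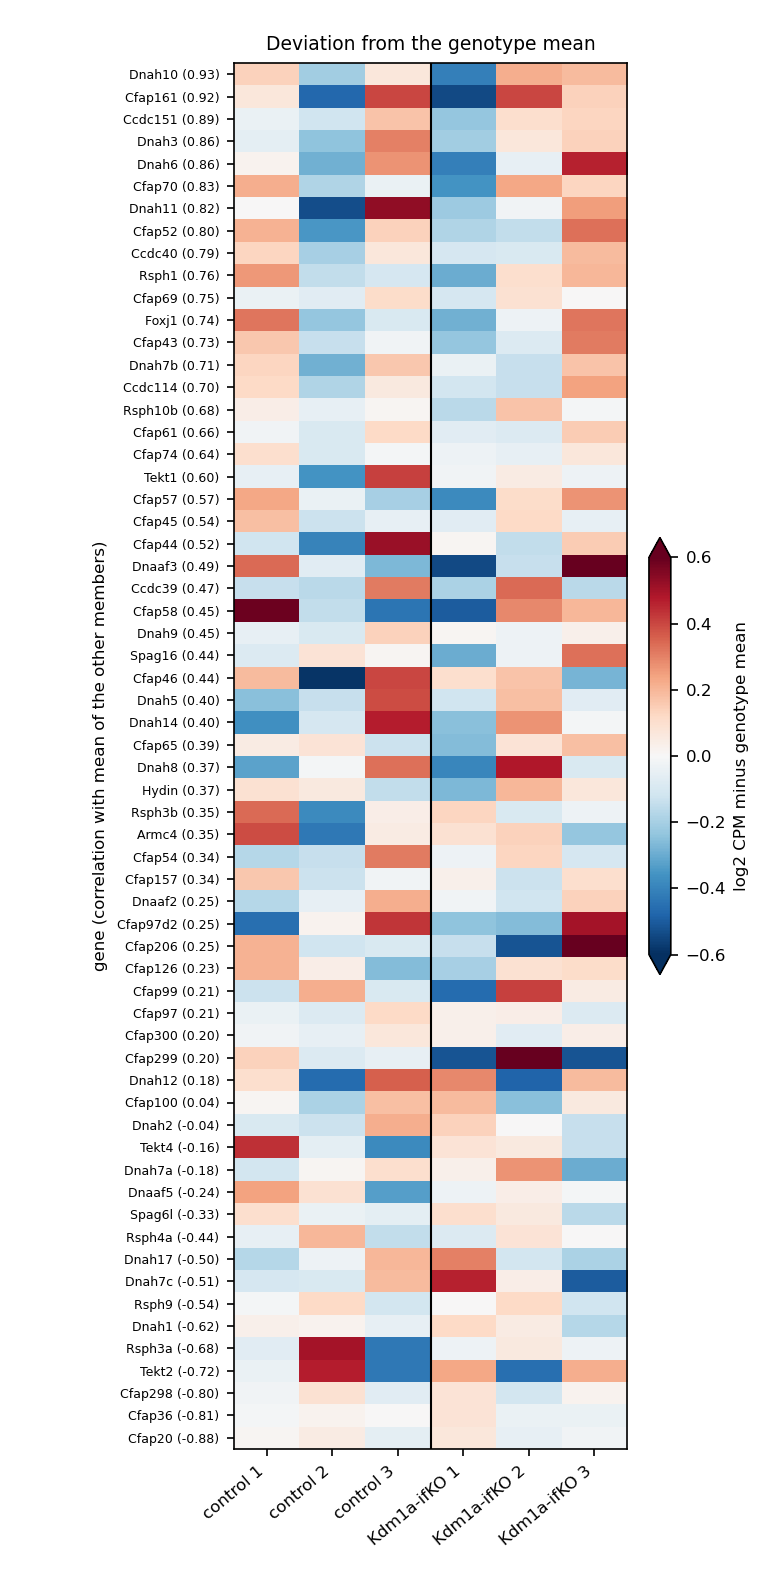
Deviation of log2 CPM from the mean of its genotype (colour, red above and blue below) for the 62 tested cilia genes in the 6 libraries, sorted by each gene's correlation with the mean of the others (in brackets). In the upper rows control 2 and Kdm1a-ifKO 1 are mostly blue, and in the bottom rows, from Tekt2 (-0.72) to Cfap20 (-0.88), control 2 and Kdm1a-ifKO 1 are red.

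Markers of the cells that carry motile cilia moved between the same libraries. Of 17 ependymal markers outside the set, 16 were tested, 6 of which (Ak7, Dynlrb2, Fam183b, Meig1, Spag17 and Enkur) are themselves axonemal genes of a list read below. Their mean deviation was 0.11, -0.07 and -0.04 in controls 1 to 3 and -0.17, -0.01 and 0.18 in Kdm1a-ifKOs 1 to 3. For the 12 tested of 16 choroid plexus markers it was 0.33, -0.19 and -0.14, then -0.35, 0.02 and 0.33. Both lists were thus lowest in Kdm1a-ifKO 1 and highest in control 1 and Kdm1a-ifKO 3, the libraries in which Foxj1 was high. In all, 12 cilia genes shared this pair of highest libraries (19.4%, against 12.5% of all tested genes), as did 7 ependymal markers (43.8%) and 6 choroid plexus markers (50.0%). Other pairs were as common among the cilia genes: control 3 and Kdm1a-ifKO 3 were highest in 11 (17.7%, against 10.6%), and control 3 and Kdm1a-ifKO 2 in 11 (17.7%, against 16.0%). Control 3 was the highest control in 27 cilia genes and control 1 in 25, whereas both marker lists were below their mean in control 3. Ttr, the transport protein that defines choroid plexus epithelium, had 611, 204 and 131 counts in controls and 64, 123 and 159 in Kdm1a-ifKOs, and Tmem212, an ependymal gene, 65, 33 and 56 against 35, 37 and 58. Ttr and Tmem212 were picked after their values were seen, as defining markers of the lists, and other markers did not follow them. Aqp1 of the choroid plexus list had 14, 12 and 15 counts in controls and 20, 21 and 8 in Kdm1a-ifKOs. Nnat of the ependymal list had 5702, 6269 and 5057 against 4921, 5749 and 4263. The correlation with the cilia genes was above 0 in 12 of the 16 ependymal and 11 of the 12 choroid plexus markers.

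Both lists overlapped between genotypes in their summed levels. Summed levels of the ependymal list were 562 to 617 CPM in controls and 546 to 638 CPM in Kdm1a-ifKOs, and those of the choroid plexus list were 212 to 270 and 236 to 267 CPM. These sums rest mostly on genes that other cells also express, Nnat (300 ± 28.7 CPM in controls) and S100b (122 ± 4.24 CPM) in the first and Enpp2 (184 ± 15.4 CPM) in the second, while Tmem212 was at 2.71 ± 0.872 CPM, so they say little about ciliated cells. The median log2FC was -0.12 and -0.04. In the ependymal list S100b, which astrocytes also express, rose (log2FC 0.26, adjusted p = 0.0111, lost without control 2 or Kdm1a-ifKO 3) and Enkur fell (-0.76, adjusted p = 0.0409). In the choroid plexus list Kl, which encodes Klotho and is also expressed by neurons, rose by a log2FC of 1.28 (adjusted p = 1.32e-07), from 24.4 ± 2.26 to 59.0 ± 2.27 CPM. None of the markers of either list was at 0 in all libraries. The part of these cells in the cilia results was not tested.

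Other cell types shifted with the cilia genes too. The 8 oligodendrocyte markers deviated by -0.22 in Kdm1a-ifKO 1 and by 0.11 in both other Kdm1a-ifKOs, and all 8 were lowest there. The 8 microglia markers were also all lowest in Kdm1a-ifKO 1 (-0.17) and highest in Kdm1a-ifKO 3 (0.17) within their group. The median correlation with the cilia genes was 0.80 for microglia, 0.78 for oligodendrocytes, 0.56 for ependyma, 0.55 for astrocytes, 0.44 for choroid plexus and -0.16 for excitatory neurons. The lists of microglia and oligodendrocytes thus had higher medians than either list of ciliated cells, and their part in the result was not tested. Between genotypes, 3 of 8 microglia markers, Cx3cr1, Csf1r and Tmem119, rose (37.5%, against 6.04% of all genes; median log2FC 0.30 for the list). The same share of astrocyte markers rose, Slc1a3, Aldoc and Sox9 (median 0.15), and none of the oligodendrocyte markers passed (0.02). Of these 6 calls only that of Sox9 held whichever library was left out. Cx3cr1 and Csf1r were lost without control 1, control 2, Kdm1a-ifKO 2 or Kdm1a-ifKO 3, and Csf1r also without control 3. Tmem119 was lost without any 1 control or without Kdm1a-ifKO 3. Slc1a3 was lost without control 1, control 2, Kdm1a-ifKO 1 or Kdm1a-ifKO 3, and Aldoc without control 2 or any 1 Kdm1a-ifKO. Of the excitatory neuron markers Neurod6, a transcription factor of these neurons, fell (-0.36 ± 0.065, adjusted p = 0.00419).

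**Figure D4:**
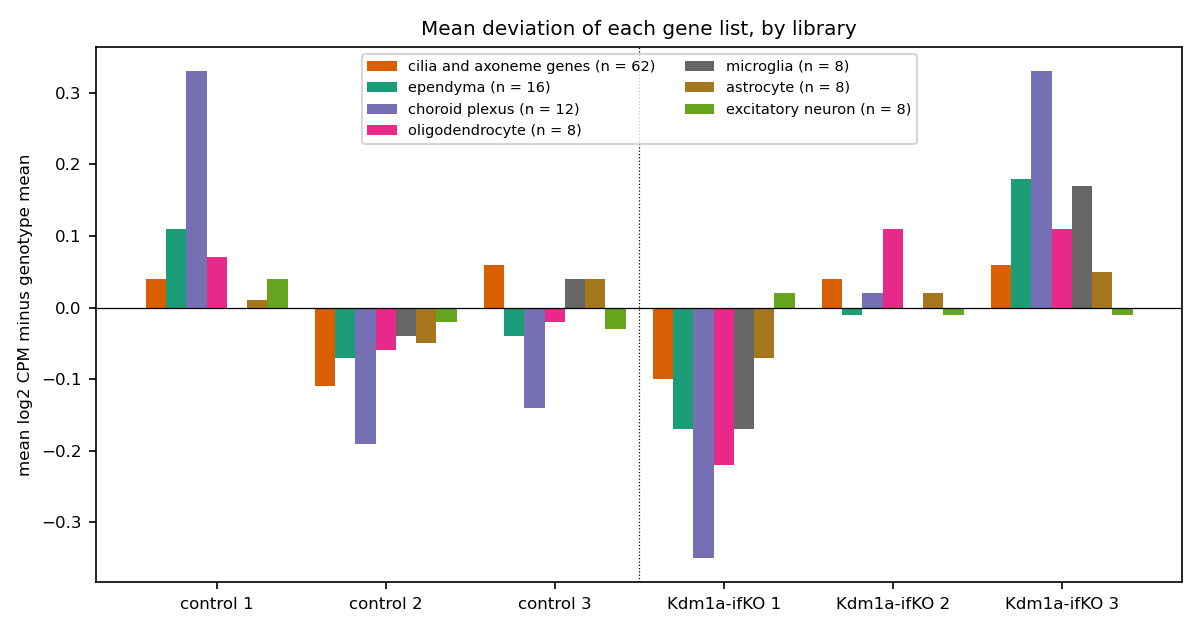
Mean deviation of log2 CPM from the genotype mean, per library, for the cilia genes and for markers of 6 cell types (bars, number of tested genes in the legend). In Kdm1a-ifKO 1 the bars of all lists but excitatory neurons lie below 0, from -0.07 for astrocytes to -0.35 for choroid plexus, and in Kdm1a-ifKO 3 the cilia genes lie at 0.06 and choroid plexus markers at 0.33.

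Genes of the same pathway outside the set were read from 4 further lists. Of 14 tested regulators of motile ciliogenesis none passed, and their median log2FC was 0.01. The RFX factors of highest CPM, Rfx3 and Rfx1, had log2FC of -0.24 ± 0.127 (adjusted p = 0.312) and 0.19 ± 0.067 (adjusted p = 0.103). Of 43 tested axonemal genes with other names, 3 fell (6.98%, against 2.82% of all genes) and none rose, with a negative log2FC in 35 (81.4%) and a median of -0.20. The 3 were Drc3 (-0.45 ± 0.108, adjusted p = 0.0205), a subunit of the nexin-dynein regulatory complex, Enkur (-0.76 ± 0.212, adjusted p = 0.0409), which also stands in the ependymal list, and Wdr78 (-0.33 ± 0.094, adjusted p = 0.0434), an intermediate chain of an inner arm. Wdr78 lost its call in 8 and Enkur in 7 of 12 alternatives, both with DESeq2, with the replicate block and in most fits without 1 library. Drc3 was lost in 4, without control 1, control 3, Kdm1a-ifKO 1 or Kdm1a-ifKO 3. Drc3 was at 226, 192 and 210 counts in controls and 161, 156 and 158 counts in Kdm1a-ifKOs, without overlap. Dnaic1 and Dnaic2, intermediate chains of the outer arm named after their values were seen, had log2FC of 0.16 ± 0.222 and -0.07 ± 0.286 (adjusted p = 0.709 and 0.913).

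A further list, called the transport list below, held 42 genes of intraflagellar transport and other ciliary genes, such as Bbs7, Adcy3 and Sstr3. Primary cilia of neurons also use intraflagellar transport. The 42 genes were more abundant, at 1809 to 1866 CPM summed in controls against 510 to 551 CPM for the 71 cilia genes. In Kdm1a-ifKOs the sum was 1663 to 1713 CPM for the transport list and 495 to 500 CPM for the cilia genes, below the controls in both cases. Such sums weight genes by abundance. In the cilia sum Cfap36 (92.4 ± 0.922 CPM in controls) and Cfap20 (48.8 ± 1.85 CPM) had the largest parts, and neither passed the test between genotypes. Of the 42, 4 fell (9.52%, against 2.82% of all genes) and 1 rose (2.38%, against 6.04%), and the log2FC was negative in 33 (78.6%) with a median of -0.13. Kif3a (-0.26 ± 0.063, adjusted p = 0.0205) and Kifap3 (-0.23 ± 0.051, adjusted p = 0.0130), subunits of the kinesin of anterograde transport, fell. Dync2h1 (-0.34 ± 0.079, adjusted p = 0.0187), the heavy chain of the retrograde motor, and Bbs7 (-0.26 ± 0.072, adjusted p = 0.0392) also fell, while Bbs9, a subunit of the same BBSome complex as Bbs7, rose (0.31 ± 0.083, adjusted p = 0.0333). The calls of both Bbs genes were unstable: Bbs7 was lost in 9 of 12 alternatives and Bbs9 in 7, in each case with DESeq2, with the replicate block and in most fits without 1 library. Kif3a, Kifap3 and Dync2h1 were lost without Kdm1a-ifKO 3, Kif3a also with the block, Kifap3 without control 2 and Dync2h1 without Kdm1a-ifKO 1. The median correlation of the transport list with the cilia genes over the libraries was 0.02. Of the 19 genes on a list of sperm genes 8 were tested, and 1 fell (12.5%, against 2.82% of all genes). This was Spata18 (-1.41 ± 0.320, adjusted p = 0.0152), from 28, 23 and 27 to 6, 11 and 13 counts. Its call was lost with DESeq2 and without Kdm1a-ifKO 1, and its correlation with the cilia genes was 0.88. Akap4, Smcp and Catsper1, which mark sperm, had no count in any library.

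CTCF loops were used to place the genes. They came from 1 ChIA-PET library of hippocampal excitatory neuron nuclei, sorted, per the methods, from 12-week-old mice with Camk2a-creERT2 and the nuclear reporter CAG-Sun1/sfGFP after tamoxifen. These mice had intact Kdm1a but, unlike the RNA-seq controls, carried the Cre transgene. An anchor lay within 10 kb of the gene body in 45 of the 62 genes (72.6%) and in 56.9% of 16758 tested genes. The cilia genes are long, with a median body of 48.5 kb against 21.3 kb, and within 2 kb of the start site the shares were 22.6% and 21.4%. Dnah2 and Dnah17 had the most anchors, 27 and 26, along bodies of 128 and 109 kb.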

How the data were processed

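Per the study's methods, the authors made the deposited counts from single-end poly-A reads, which were trimmed with cutadapt 1.18, aligned to mm10 with HISAT2 2.1.0, kept above a mapping quality of 30 on nuclear chromosomes and counted per Ensembl gene with HTSeq 0.11.1. The strand setting of the counting is not given in the sources used here. Of the 71 genes, 48 overlap another annotated gene and 43 one on the opposite strand. The CTCF loops were deposited by the authors as counts of paired-end tags, at least 3 per loop.

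Everything else was computed here. The 3 Kdm1a-ifKO and 3 control libraries were compared by genotype alone with the robust quasi-likelihood test of edgeR (4.0.16, under R 4.3.3) after its default expression filter and TMM scaling; Benjamini-Hochberg adjustment ran over 16799 genes and the threshold was 0.05. The script was tested on simulated data. Gene symbols were found for 48435 identifiers. TPM used summed exon lengths, and log2 CPM for deviations a prior count of 2. The genes, lists and tests were chosen with earlier results of these data known. Genes were named by rule: the genes given by name, those past the threshold, the 5 largest and 5 smallest log2FC, the 5 of highest TPM, the 5 highest and 5 lowest correlations, and, per list, genes past the threshold and the 2 of highest CPM. Others illustrate the role groups and were named after their values were seen. Alternatives were DESeq2 1.42.0, its size factors, upper-quartile scaling, other count filters, a replicate block and each library left out. Library totals limit precision for counting only. ChIP-seq files were not used, and results for some list genes that the rule names are not reported here.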

Additional observations from a re-analysis of the deposited data

How the results depend on the processing

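Increases of cilia genes numbered 3 under every alternative run. Decreases numbered 3, but 4 with DESeq2, where Ccdc39 was added, 5 with no filter on low counts, where Ccdc39 and Dnah9 were added, and from 1 (without Kdm1a-ifKO 1) to 4 when 1 library was left out. No pairing by library number was seen: deviations of same-numbered libraries correlated at -0.03, -0.09 and -0.15, and no library correlated best with its own number. All pairs across genotypes were weak, from -0.15 to 0.16, so whether same-numbered mice were paired cannot be told from them. With the number as a replicate block, 3 cilia genes rose and 2 fell, Cfap97 being lost, and all genes called went from 1014 and 473 to 797 and 249. Over the 4 pathway lists 1 gene rose, against 0 with DESeq2, 0 with the block and 0 to 1 with a library left out. In these lists 8 fell, against 4 with DESeq2, 4 with the block and 2 to 6 with a library left out. With upper-quartile scaling 6 fell, and with no filter on low counts 12 did. The median correlation of 0.38 ran from 0.28 without control 2 to 0.48 without control 1. The median log2FC of the cilia genes stayed below 0 throughout (-0.22 to -0.09). Estimates near 0 changed sign: with a library left out, the log2FC ran from -0.04 to 0.14 for Ccdc151, -0.46 to 0.01 for Cfap161, -0.14 to 0.17 for Dnah3 (0.02 with upper-quartile scaling), -0.17 to 0.19 for Foxj1, -0.25 to 0.21 for Tekt4 and -0.12 to 0.02 for Enpp2, none past the threshold. A CTCF anchor within 2 kb of the start site, in place of 10 kb of the body, was found for 22.6%. A design of 3 against 3 cannot give an exact permutation p under 0.1, so only the model across all genes was used. Genes under 1 CPM had wide errors at this depth.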
